A study of Mus musculus with 2 samples.

Results

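The Slc25 genes encode the mitochondrial carrier family, whose transcripts were compared between colon epithelial cells of wild type and Pkm2 knockout mice. Members were all genes in the expression files whose symbol is Slc25a followed by a number. This gave 44 members among 22350 gene symbols, 43 of them listed in both libraries, and no member had more than 1 gene ID. The study holds 2 messenger RNA libraries of frozen colon epithelial cells from C57BL/6 mice, 1 of genotype Wild Type and 1 of genotype Pkm2-/-. Both preparations followed 3 days of dextran sulfate sodium (DSS, 2.5%), which damages the lining of the colon, so no untreated sample serves as a baseline. How old the mice were, how many went into a library and how the knockout was made are not stated in the labels used here. With 1 library per genotype, every difference describes these 2 libraries and has no replicate check or p-value.

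Mitochondrial carriers sit in the inner membrane, which few metabolites cross unaided, and exchange substrates such as ADP for ATP, citrate for malate, or aspartate for glutamate. They join the cytosol to the tricarboxylic acid cycle, the respiratory chain, fatty acid oxidation and the making of cofactors. Colonocytes burn fatty acids, above all butyrate from bacteria, and depend on these exchanges. Pkm encodes the pyruvate kinase that makes pyruvate at the end of glycolysis, and carriers handle what pyruvate becomes inside the mitochondrion.

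Values are FPKM, fragment counts scaled to transcript length and library size, as the authors deposited them. The log2 ratio is the log2 of knockout over wild type after adding 1 FPKM to each value, a scale that understates the differences of low genes. Where paired values follow each other, the wild type library comes first. A fold is the plain ratio of FPKM values, with a 95% counting interval from the number of fragments the values imply, which covers counting error only. Members entered the counts when the mean of the libraries was at least 1 FPKM, which 37 of the 44 did, as did 12429 of all genes. The steps between the lowest values put the depth near 18700000 fragments for the wild type library and 20500000 for the knockout library. In bulk RNA, fewer cells of a type and less RNA per cell cannot be told apart.

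The targeted gene Pkm stood at 281 FPKM in wild type and 86.2 FPKM in the knockout library, a value that covers its Pkm1 and Pkm2 isoforms together. All 8 epithelial markers were abundant, with a summed 4641 FPKM in wild type and 5525 FPKM in the knockout library. Markers of other cells were low but unequal. The 8 T cell markers summed to 16.9 and 75.8 FPKM. The 7 that passed the filter were all more than 1.5-fold higher in cells labelled knockout, beside 4.46% of all genes measured. The 6 B and plasma cell markers summed to 8.37 and 32.2 FPKM and the 7 macrophage and dendritic markers to 6.97 and 12.2 FPKM. The erythroid markers summed to 24.5 and 1.91 FPKM, led by the globin Hbb-bs at 8.99 and 0.311 FPKM. Fibroblast markers summed to 4.34 and 1.35 FPKM, and endothelial markers to 0.390 and 0.387 FPKM. The 6 mitosis markers summed to 140 FPKM in wild type and 238 FPKM in the knockout library. At least 1.5-fold higher in the latter were 4 of the 6, beside 4.46% of all genes measured. The part of these differences in the values of the carriers was not tested.

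The promoters of 4 carriers are shown because the largest differences of the family lay in Slc25a4, Slc25a20 and Slc25a42, and because Slc25a5 is the abundant paralogue of Slc25a4. The sequences are the 250 bases before the RefSeq start on GRCm38.p6, at chr8:46211063-46211312 on the minus strand, chrX:36795347-36795596 on the plus strand, chr9:108661886-108662135 on the plus strand and chr8:70212282-70212531 on the minus strand. Capitals mark matches to the motifs searched, with CCCGCCC standing for GGGCGGG on the other strand.
Slc25a4: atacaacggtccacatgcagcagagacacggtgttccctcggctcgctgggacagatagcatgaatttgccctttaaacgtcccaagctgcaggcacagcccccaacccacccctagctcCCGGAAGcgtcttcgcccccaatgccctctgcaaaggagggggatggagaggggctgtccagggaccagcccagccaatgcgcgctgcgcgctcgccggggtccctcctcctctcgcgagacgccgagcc
Slc25a5: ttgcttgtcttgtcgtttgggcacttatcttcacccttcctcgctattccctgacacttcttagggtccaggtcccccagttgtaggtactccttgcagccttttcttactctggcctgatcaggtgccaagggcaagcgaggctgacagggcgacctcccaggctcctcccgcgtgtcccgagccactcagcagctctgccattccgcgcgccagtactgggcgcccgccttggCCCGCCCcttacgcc
Slc25a20: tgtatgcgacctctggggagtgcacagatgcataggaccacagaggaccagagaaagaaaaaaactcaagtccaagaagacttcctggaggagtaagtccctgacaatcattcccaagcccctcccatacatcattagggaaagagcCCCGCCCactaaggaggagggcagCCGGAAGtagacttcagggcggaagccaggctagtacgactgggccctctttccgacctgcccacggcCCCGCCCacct
Slc25a42: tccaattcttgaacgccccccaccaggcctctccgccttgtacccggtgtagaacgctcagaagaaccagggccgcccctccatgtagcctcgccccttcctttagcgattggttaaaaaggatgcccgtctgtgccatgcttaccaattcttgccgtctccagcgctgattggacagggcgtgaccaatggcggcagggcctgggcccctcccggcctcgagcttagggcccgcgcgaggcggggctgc
The motifs were searched on both strands of these windows. Slc25a4 and Slc25a20 each held 1 match to the ETS core CCGGAAG, which 6.91% of 32851 RefSeq windows of this length held, and 6 of the 46 windows of carriers. Slc25a20 held 2 matches to the SP/KLF box GGGCGGG and Slc25a5 held 1, against 23.4% of all windows with at least 1 and 20 of the 46 carrier windows. No match stood in these 4 windows to the NRF1 palindrome (3.74% of all windows), TGACGTCA of CREB (1.55%), the E-box CACGTG (6.02%), the nuclear receptor half-site AGGTCA (14%), its direct repeat spaced by 1 base (0.0335%) or the GAS element TTCNNNGAA (7.02%). The direct repeat contains the half-site. Of the 47 family genes in the GENCODE M21 annotation, 36 had a RefSeq window by symbol. A match is a stretch of letters and not a binding site measured in these cells.

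As a family, the carriers differed little between the libraries. Their median log2 ratio was -0.03 over 37 members, beside 0.06 over all 12429 genes measured, though it lay at 0.01 under 1 of 8 other settings, and their SD was 0.39 beside 0.47. The ratio was above 0 for 18 members and below 0 for 19, so that 48.6% leaned to the knockout library, against 58.8% of all genes above 0 and 41.2% below. Within 1.2-fold lay 22 members, or 59.5%, against 62.4% of all genes. Past 1.5-fold on the higher side were 2 members, Slc25a4 and Slc25a26, which is 5.41% of the family beside 4.46% of all genes. At least 1.5-fold lower were Slc25a20 and Slc25a42, again 5.41%, beside 5.29% of all genes. Together these 4 made up 10.8% of the carriers, beside 9.75% of all genes at least 1.5-fold apart. Only Slc25a4 passed 2-fold, on the higher side, 2.70% of the members beside 3.31% of all genes apart, 1.42% of them higher and 1.9% lower. These shares are near the background, so the family was not distinguished by how many members differed. By each gene's longest transcript, a fold of 1 lay outside the counting interval for 26 members (70.3%), 14 of them higher and 12 lower. The share of all genes was 61.3%, with 38.2% higher and 23.1% lower. These counts say only that the depth resolved small differences at these levels. They depend on the length chosen. With the median transcript length the intervals of Slc25a39, Slc25a35, Slc25a51, Slc25a28, Slc25a46, Slc25a25, Slc25a23, Slc25a30 and Slc25a53 held 1, and no member was gained.

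**Figure D1:**
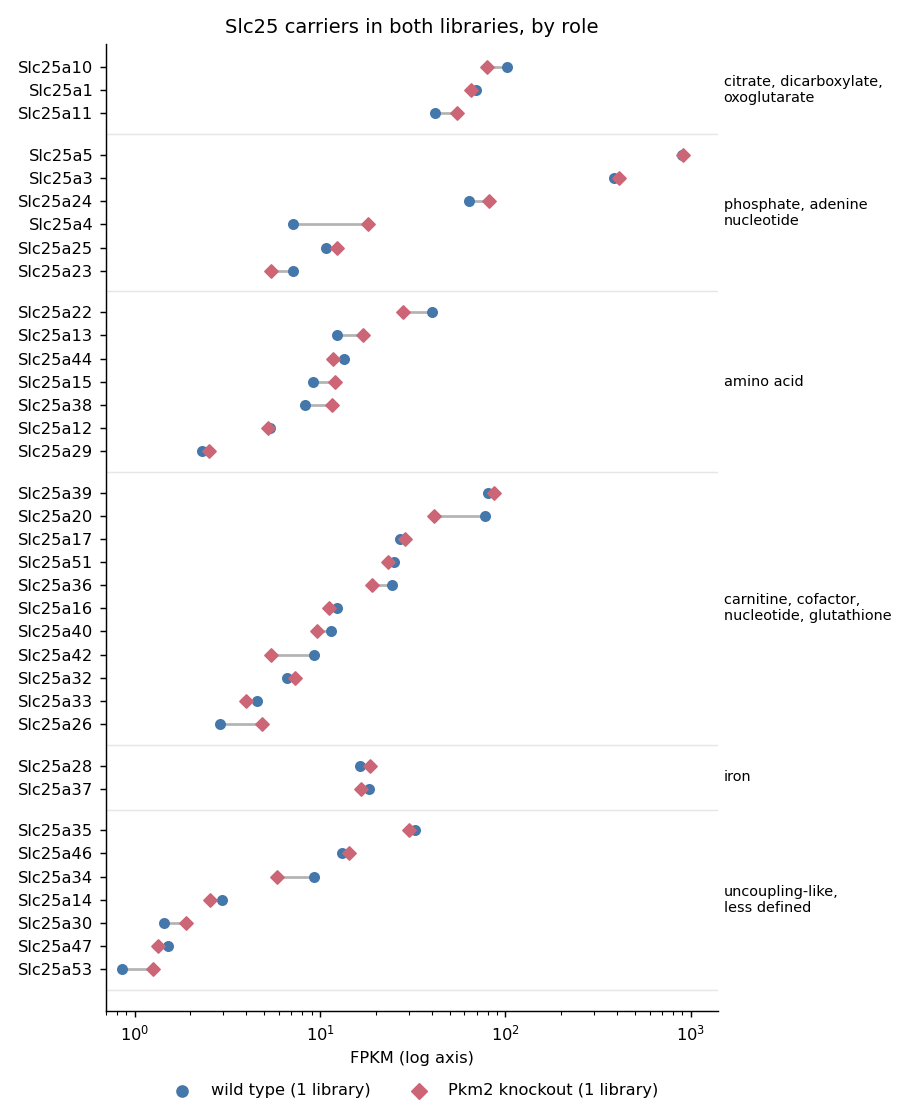
FPKM of 36 of the 37 carriers with a mean of at least 1 FPKM, on a log axis, grouped by what they move, with the wild type library as circles and the Pkm2 knockout library as diamonds. The levels span from about 1 FPKM for Slc25a53 to about 900 FPKM for Slc25a5, and the widest gap is that of Slc25a4, at 7.15 and 18.2 FPKM.

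Total carrier transcript was almost the same, with a family sum of 2061 FPKM in wild type and 2065 FPKM in the knockout library. Slc25a5 alone made up 43.5% of the family sum in wild type cells and 43.9% in knockout cells. Slc25a3 added 18.7% and 19.9%. Without both, the remaining members summed to 779 and 747 FPKM. By level, 2 members had a mean of at least 100 FPKM, 21 lay between 10 and 100 FPKM, and 14 between 1 and 10 FPKM. The other 7 stayed below that mean, with listed values from 0.0488 to 0.984 FPKM. These 7 were Slc25a45, Slc25a48, Slc25a27, Slc25a43, Slc25a31, Slc25a18 and Slc25a2, the last listed in the wild type library alone at 0.0756 FPKM. Slc25a45 (0.984 and 0.949 FPKM) lay just under the minimum, and Slc25a53 (0.859 and 1.26 FPKM) just above it. The family genes Slc25a21, Slc25a41 and Slc25a54 were listed in neither library.

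Carriers of adenine nucleotides and phosphate supply ATP synthase with its substrates and bring ATP to the cytosol, and this group held both the highest levels and the largest ratio. Of its 6 measured members 5 had ratios above 0, beside 58.8% of all genes, with a median of 0.13. Slc25a5, the ADP/ATP carrier of dividing and epithelial cells, stood at 896 FPKM in wild type and 907 FPKM in the knockout library, above 99.6% of all measured genes in each. Slc25a3, the phosphate carrier, stood at 386 and 411 FPKM. Both were thus very abundant and close between the libraries. Of the 31-base words in the transcripts of Slc25a5, 49.4% also occur in other annotated genes, mostly processed pseudogenes, and its value is uncertain to that extent. The 6 genes that shared at least 100 words with it were themselves low, with a summed 0.192 and 0.258 FPKM.

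Slc25a4 encodes the ADP/ATP carrier typical of heart and skeletal muscle. It had 7.15 FPKM in wild type cells against 18.2 FPKM in knockout cells, a level 2.54-fold higher (95% counting interval 2.204 to 2.95), from about 257 and 716 fragments. The gene lies on chromosome 8 from 46206797 to 46211284 on the minus strand of GRCm38, and shared no 31-base word with another gene. In the ranking of measured genes it moved from above 38.2% of them in the wild type to above 65.3% in the knockout library. Muscle markers were low in both libraries: Acta1 stood at 4.96 and 4.16 FPKM, Tagln at 1.94 and 2.08 FPKM, Acta2 at 0.0281 and 0.232 FPKM, Des at 0.0289 FPKM in the wild type library alone, and the 6 markers summed to 6.97 and 6.49 FPKM. Actg2 was listed in neither library, and the part of muscle cells was not tested. Even so, Slc25a4 remained a small part of the ADP/ATP carrier transcripts, 0.791% of the sum with Slc25a5 in wild type and 1.96% in the knockout library. That sum was 903 and 925 FPKM.

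The ATP-Mg/phosphate carriers adjust the adenine nucleotide pool of the matrix in response to calcium, and they did not go one way. Slc25a24 stood at 63.4 and 81.7 FPKM, 1.29-fold higher in the knockout library. Slc25a25 stood at 10.8 and 12.3 FPKM. Slc25a23 stood at 7.16 and 5.42 FPKM, 1.32-fold lower. Slc25a24 thus remained the leading form, with 85.5% of its sum with Slc25a25 in wild type and 86.9% in the knockout library. Slc25a31, an ADP/ATP carrier of the testis, was at 0.139 and 0.0750 FPKM.

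**Figure D2:**
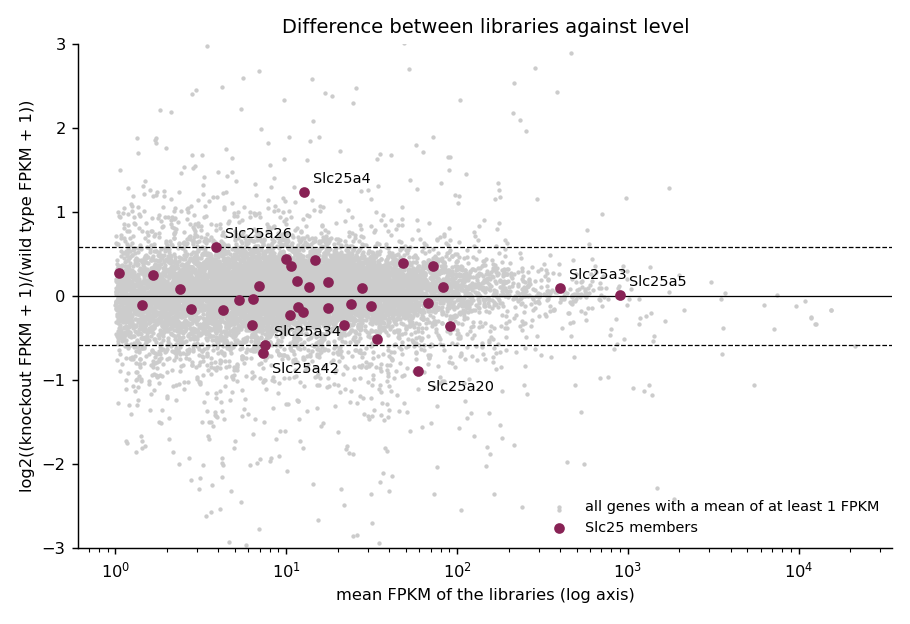
Log2 of the knockout to wild type ratio, 1 FPKM being added to each value, against the mean FPKM of the libraries on a log axis, for all 12429 measured genes in grey and the 37 carriers in purple. Dashed lines mark 1.5-fold, and 38 grey genes lie outside the ratio axis. Slc25a4 stands highest and Slc25a20 lowest among the carriers, while Slc25a5 and Slc25a3 lie near 0 at the right.

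Carriers of citrate and other carboxylates feed fatty acid synthesis and the shuttles of reducing equivalents. Their 3 measured members had a median log2 ratio of -0.08, with 1 above 0. Slc25a1, which exports citrate as the source of cytosolic acetyl-CoA, was close at 69.4 and 65.5 FPKM. Slc25a10, which exchanges malate or succinate for phosphate, stood at 102 and 79.1 FPKM, 1.29-fold lower in the knockout library. Slc25a11, the oxoglutarate carrier, went the other way, at 41.5 and 54.6 FPKM, 1.32-fold higher. Of its exon bases 8.92% are also covered by Rnf167 on the opposite strand (27.5 and 22.4 FPKM), and whether counting used the strand is not given in these sources. Beside Slc25a1, the enzymes that use exported citrate were Acly, ATP citrate lyase, at 70.1 and 93.8 FPKM, Acaca, acetyl-CoA carboxylase, at 12.8 and 16.2 FPKM, and Fasn, fatty acid synthase, at 38.2 and 40.3 FPKM.

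The malate-aspartate shuttle carries the electrons of cytosolic NADH into mitochondria with the oxoglutarate carrier, an aspartate/glutamate carrier and paired dehydrogenases and aminotransferases. Slc25a13 (citrin), the aspartate/glutamate carrier of liver and epithelia, stood at 12.4 and 17.0 FPKM, 1.38-fold higher in the knockout library (95% counting interval 1.25 to 1.52). Slc25a12 (aralar), the form of brain and muscle, was close at 5.39 and 5.21 FPKM. The share of Slc25a13 in their sum was 69.7% in wild type and 76.6% in the knockout library. The 4 shuttle enzymes had knockout levels above those of wild type, their median log2 ratio being 0.49 beside 0.06 over all genes. The cytosolic aminotransferase Got1 stood at 16.3 and 32.2 FPKM, 1.98-fold higher (95% counting interval 1.80 to 2.18). The mitochondrial aminotransferase Got2 stood at 35.4 and 56.1 FPKM, 1.58-fold higher, and the dehydrogenases Mdh1 and Mdh2 at 160 and 179 FPKM and at 176 and 220 FPKM. Of all genes 58.8% had ratios above 0, and these enzymes were chosen after the files were read, so their count supports nothing about the shuttle.

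Other amino acid carriers serve urea and proline metabolism, heme synthesis and the breakdown of branched-chain amino acids. Over the 7 measured amino acid carriers, the median log2 ratio was 0.09, with 4 above 0 and 3 below. Slc25a22, the main mitochondrial importer of glutamate, stood at 40.3 and 27.99 FPKM, 1.44-fold lower in the knockout library (95% counting interval 1.37 to 1.51). Its near relative Slc25a18 was at 0.0795 and 0.0488 FPKM, so that Slc25a22 made up 99.8% of their sum in both libraries. Enzymes of glutamate use beside it were closer, with the dehydrogenase Glud1 at 63.96 and 74.4 FPKM and Aldh18a1 of proline synthesis at 25.2 and 22.6 FPKM. Slc25a15, the ornithine carrier, stood at 9.17 and 12.1 FPKM, 1.32-fold higher in the knockout library, and Slc25a29, a carrier of basic amino acids, at 2.298 and 2.50 FPKM. Slc25a38, which brings in glycine for heme synthesis, stood at 8.31 and 11.6 FPKM, 1.401-fold higher. Slc25a44, a carrier of branched-chain amino acids, was close at 13.5 and 11.7 FPKM. No member of this group reached 1.5-fold.

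Slc25a20 encodes the carnitine/acylcarnitine carrier, which brings long-chain fatty acids joined to carnitine into the matrix for oxidation. It had 77.1 FPKM in wild type cells against 41.1 FPKM in knockout cells, a level 1.88-fold lower (95% counting interval 1.78 to 1.98). Its place among the family's levels went from rank 5 to rank 8. The gene lies on chromosome 9 from 108662088 to 108684641 on the plus strand of GRCm38, and 9.02% of the 31-base words of its transcripts occur in other genes. The 4 other measured genes of the carnitine shuttle differed by less. Cpt1a, which joins fatty acids to carnitine at the outer membrane, stood at 62.5 and 68.9 FPKM, and Cpt2, which frees them inside, at 39.4 and 43.0 FPKM. The carnitine acetyltransferase Crat stood at 13.5 and 11.9 FPKM and the plasma membrane carnitine transporter Slc22a5 at 15.9 and 12.2 FPKM, 1.297-fold lower. The muscle form Cpt1b, below the minimum of 1 FPKM, was at 0.862 and 0.151 FPKM.

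**Figure D3:**
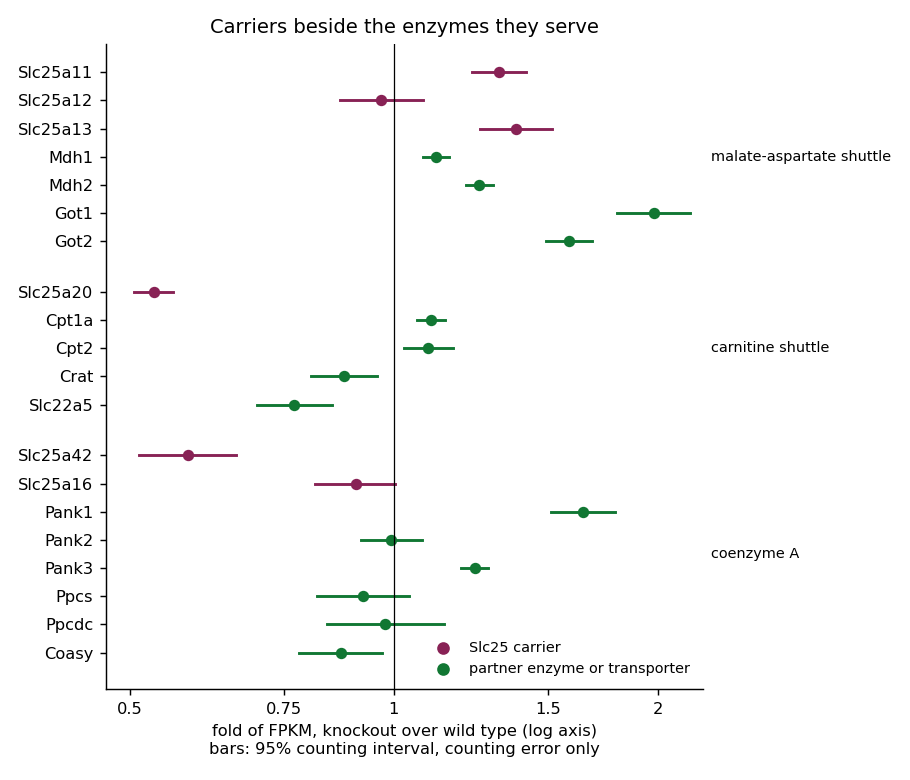
Fold of FPKM, knockout over wild type, on a log axis for carriers (purple) and the enzymes or transporters they work with (green) in the malate-aspartate shuttle, the carnitine shuttle and coenzyme A supply, with bars for the 95% counting interval. Slc25a11 and Slc25a13 lie above 1 with Got1 and Got2, while Slc25a12 of the same shuttle lies at 0.967 with a bar that crosses 1. Slc25a20 lies at 0.533 with Cpt1a and Cpt2 slightly above 1.

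The carriers of cofactors, nucleotides and glutathione numbered 12 together with Slc25a20, all of them measured. Of these, 8 had ratios below 0, as did 41.2% of all genes, and the median was -0.11. Slc25a42, which carries coenzyme A into the matrix, stood at 9.29 and 5.41 FPKM, 1.72-fold lower in the knockout library (95% counting interval 1.51 to 1.95). It lies on chromosome 8 from 70184340 to 70212305 on the minus strand. Slc25a16, a relative also linked to coenzyme A, stood at 12.4 and 11.2 FPKM, and its share of the pair was 57.1% in wild type and 67.4% in the knockout library. Of the genes of coenzyme A synthesis, the pantothenate kinase Pank1 was 1.64-fold higher, at 6.29 and 10.3 FPKM. The kinase Pank3 stood at 38.8 and 47.98 FPKM, and Pank2, Ppcs, Ppcdc and Coasy all lay within 1.2-fold.

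Slc25a26 imports S-adenosylmethionine, the methyl donor for mitochondrial RNA and proteins. It stood at 2.88 and 4.84 FPKM, a knockout level 1.68-fold higher with a wide counting interval of 1.33 to 2.13 from about 112 and 206 fragments. On the scale with 1 FPKM added it was 1.504-fold higher, just past the threshold, whereas Slc25a34 at 1.499-fold lower missed it. With equal library medians Slc25a26 missed it and Slc25a34 passed. The gene lies on chromosome 6 from 94500331 to 94604672 on the plus strand. Of its exon bases 3.00% are also covered by Lrig1 on the opposite strand, which stood higher, at 26.4 and 29.4 FPKM. As strand use in counting is not given, the Slc25a26 value is uncertain. The enzyme that makes S-adenosylmethionine outside the liver, Mat2a, stood at 208 and 183 FPKM, and its regulatory subunit Mat2b at 37.8 and 37.2 FPKM.

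Most other cofactor and nucleotide carriers were close. The glutathione carriers Slc25a39 and Slc25a40 stood at 80.1 and 86.2 FPKM and at 11.4 and 9.61 FPKM. The NAD carrier Slc25a51 stood at 24.9 and 23.3 FPKM and the folate and FAD carrier Slc25a32 at 6.64 and 7.29 FPKM. The peroxisomal carrier Slc25a17 stood at 26.8 and 28.6 FPKM. All these were within 1.2-fold. The pyrimidine nucleotide carrier Slc25a36 was 1.28-fold lower in the knockout library, at 24.4 and 19.1 FPKM. Slc25a33, its relative, stood at 4.59 and 3.97 FPKM, and 14.9% of its exon bases are also covered by the antisense gene Gm13068.

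The iron carriers, the mitoferrins, supply heme and iron-sulfur cluster synthesis. Slc25a28, the form of most tissues, stood at 16.4 and 18.6 FPKM. Slc25a37, the form known from erythroid cells, stood at 18.4 and 16.5 FPKM. The more abundant form therefore differed, with Slc25a28 at 47.2% of their sum in wild type and 52.9% in the knockout library, while the sum itself was 34.8 and 35.1 FPKM. The globin genes were lower in the knockout library by far more than Slc25a37, with Hba-a1 at 6.77 and 0.630 FPKM, and the part of red cells in the Slc25a37 value was not tested. Fech, which inserts iron into heme, stood at 14.6 and 15.1 FPKM.

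Among members with an uncoupling-like or unsettled role, 7 were measured, with a median log2 ratio of -0.11. Slc25a34 stood at 9.23 and 5.82 FPKM, 1.59-fold lower in the knockout library as a plain ratio (95% counting interval 1.37 to 1.84). Slc25a35, a related gene, stood at 32.5 and 30.0 FPKM. The share of Slc25a34 in the pair was 22.1% and 16.3%. The exons of Slc25a35 overlap those of Rangrf on the opposite strand over 31.3% of their bases, and Rangrf stood at 26.9 and 35.7 FPKM, so its value is uncertain. Slc25a46, an outer membrane protein of mitochondrial dynamics, was close at 13.1 and 14.3 FPKM. The uncoupling-like Slc25a14 stood at 2.95 and 2.56 FPKM, Slc25a30 at 1.43 and 1.90 FPKM, and the liver carrier Slc25a47 at 1.52 and 1.34 FPKM. At such levels the counting intervals of Slc25a14 and Slc25a47 held 1, so no difference was detectable at this depth.

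**Figure D4:**
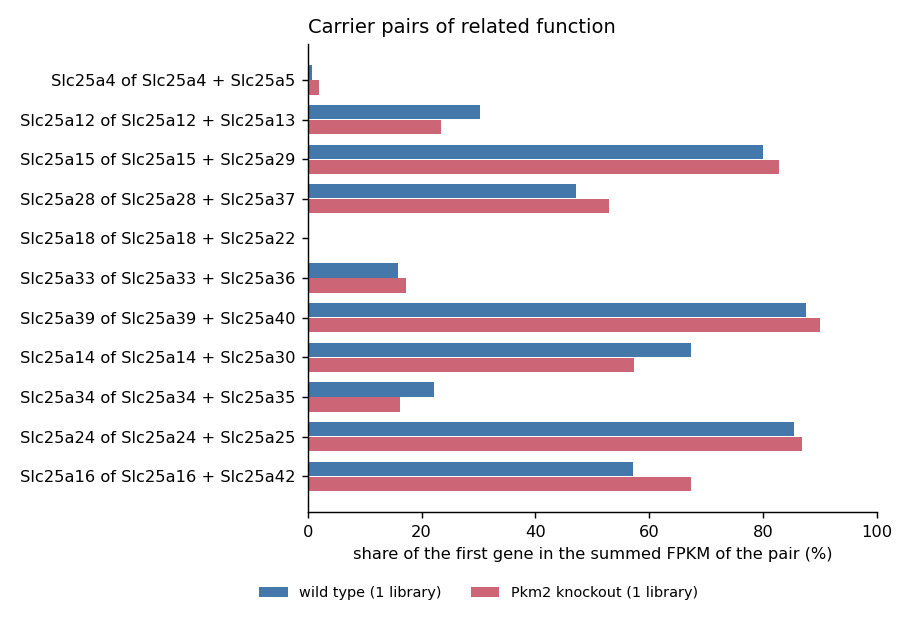
Share of the first carrier in the summed FPKM of each of 11 pairs of related function, in percent, for the wild type library (blue) and the Pkm2 knockout library (red). In 10 of the 11 pairs the same gene is the more abundant in both libraries, and the largest move in points is that of Slc25a16, from 57.1% to 67.4%.

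The more abundant gene of a pair was the same in both libraries for 10 of the 11 pairs. The exception was the mitoferrins, which were only 1.12-fold apart in each library. The share moved by less than 5 percentage points in 6 pairs. A share close to its limit can hide a change of balance. Slc25a4 moved by 1.17 points, yet Slc25a5 had 125 times its FPKM in wild type cells and 49.9 times in knockout cells. In points, the largest moves were those of Slc25a16 with Slc25a42, by 10.3 points, and of Slc25a14, whose share of its sum with Slc25a30 was 67.3% in wild type and 57.4% in the knockout library. Both Slc25a14 and Slc25a30 were low, with about 103 and 98 fragments for Slc25a14 and 96 and 140 for Slc25a30. The counting interval of the Slc25a14 fold held 1, at 0.652 to 1.16. That of Slc25a30 was 1.02 to 1.75, but held 1 with the median transcript length, at 0.624 to 3.12. All these shifts of share rest on 1 library per genotype and were not tested.

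Other mitochondrial genes were set beside the carriers as companions. These were transport genes, a list of mitochondrial mass and a list of regulators of mitochondrial genes. Over 51 measured companions the median log2 ratio was 0.21, with 38 (74.5%) above 0 against 58.8% of all genes. Of the 51, 4 (7.84%) reached 1.5-fold towards the knockout library, beside 4.46% of all genes, and 0 reached 1.5-fold towards wild type, beside 5.29%. The 4 were Timm10 of carrier import, Ccdc109b of the calcium uniporter list, Hspd1 of the mass list and the regulator Ppargc1b. Hspd1 and Ppargc1b are not transport genes. The difference of the companions from the carriers was not tested. The list named import of carrier proteins had a median of 0.30 over 16 members, 13 of them above 0. It is a mixed list of protein import genes. Timm17a, Timm17b, Timm23, Timm44 and Timm50 belong to the presequence translocase, a route that carriers do not take. The median is therefore not that of carrier import alone. Timm10, a chaperone that escorts carriers between the membranes, was highest at 13.8 and 22.9 FPKM, 1.66-fold, and Timm17b lowest at 9.13 and 7.56 FPKM. The carrier receptor Tomm70a stood at 27.99 and 40.5 FPKM, the pore Tomm40 at 37.4 and 55.2 FPKM and the carrier translocase Timm22 at 7.65 and 10.4 FPKM. All 8 genes of the mitochondrial mass list were above 0, with a median of 0.30, from the chaperonin Hspd1 at 146 and 234 FPKM (1.597-fold) to the channel Vdac1 at 138 and 145 FPKM. The carriers' own median of -0.03 lay below both lists. These lists share Tomm20 and were chosen with earlier results of these data known.

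**Figure D5:**
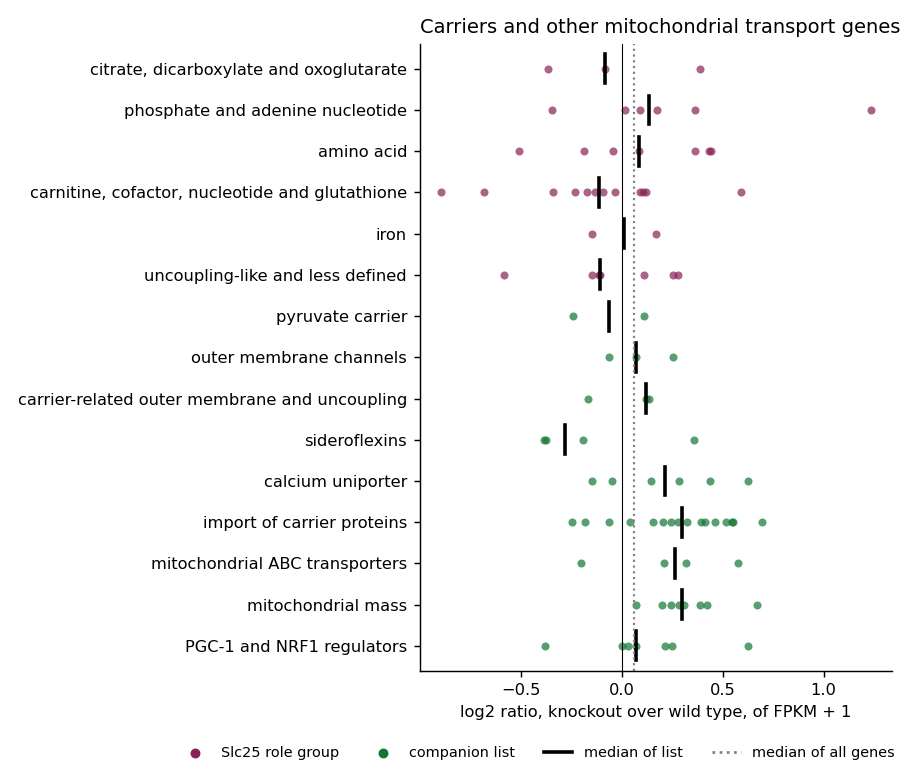
Log2 of the knockout to wild type ratio, 1 FPKM being added, for each measured gene of the Slc25 role groups (purple) and of the companion lists (green), with a black bar at each list's median and a dotted line at the median of all genes. The lists named import of carrier proteins, which also holds other protein import genes, and mitochondrial mass have medians of 0.30. The carrier groups lie between -0.11 and 0.13.

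Smaller companion lists went both ways. The subunits of the mitochondrial pyruvate carrier, through which the product of pyruvate kinase enters, were Mpc1 at 98.4 and 83.1 FPKM and Mpc2 at 35.8 and 38.7 FPKM. The outer membrane channels ranged from Vdac2, at 173 and 207 FPKM, to Vdac3, at 123 and 118 FPKM. Among carrier relatives outside the Slc25 names, Mtch2 stood at 86.8 and 95.5 FPKM and the uncoupling protein Ucp2 at 293 and 261 FPKM, while Ucp1 of brown fat was listed in neither library. The sideroflexins, serine and amino acid carriers of another family, had a median of -0.28 over 4 genes, from Sfxn1 at 20.2 and 26.1 FPKM to Sfxn5 at 2.73 and 1.86 FPKM. In the calcium uniporter list the inhibitory subunit Mcub, under its older symbol Ccdc109b, was 1.68-fold higher at 3.80 and 6.40 FPKM. Ccdc109b is also known from immune cells, whose markers were higher in the knockout library, and their part was not tested. Of the mitochondrial ABC transporters, Abcb6 was lowest at 19.1 and 16.5 FPKM. Among regulators of mitochondrial genes, the coactivator Ppargc1b was 1.61-fold higher, at 8.31 and 13.4 FPKM, and its relative Ppargc1a lowest, at 12.1 and 9.07 FPKM.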

How the data were processed

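Messenger RNA of colon epithelial cells was sequenced in 2 libraries, 1 per genotype. The deposited values are FPKM, 1 per Ensembl gene, in files without a header; the unit was inferred from the values and the tool names. The submitters' processing notes name TopHat2 2.1.1 with Bowtie2 2.2.9, then Cuffdiff (2.2.1, 1.3.0), Cufflinks 2.2.1 and build mm8, with no roles given. The coordinates went against that build name: 99.43% of 22384 gene IDs were in GENCODE M21, and 99.9% of these overlapped their gene on GRCm38, whose coordinates are printed. Rows that share a symbol were summed and an unlisted gene was taken as 0, which need not mean that it is not expressed.

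Depth was estimated from genes with 1 transcript longer than 1.5 kb, whose lowest values cluster at the worth of 1 fragment (0.0535 FPKM times kb in the wild type from 365 genes, 0.0489 in the knockout library from 363). Clopper-Pearson bounds were put on the fragments that this step implies for the gene's longest transcript. They are approximate. With the median transcript length, those of Slc25a4, Slc25a20, Slc25a42 and Slc25a26 became 2.17 to 2.98, 1.76 to 2.00, 1.50 to 1.97 and 1.27 to 2.25. Fold thresholds were 1.5 and 2 on the log2(FPKM + 1) scale. Carriers past the filter (mean of 1 FPKM or more) were named, with those past 1.5-fold in full, and of each companion list the genes past 1.5-fold and the ends; other companions, such as Tomm70a, were chosen after their values were seen. The values of 1 carrier and of some companion, partner and marker genes are in the counts and medians but not reported here. Members, role groups, companion and partner lists were chosen with earlier results of these data known, and the partner enzymes and motifs after the files were read. The scripts were tested on simulated data and run with Python 3.11.15, numpy 2.4.6, pandas 2.3.3, scipy 1.17.1 and matplotlib 3.10.9.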

Additional observations from a re-analysis of the deposited data

How the results depend on the processing

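The medians of the family, its role groups and the companion lists, and the counts of carriers past a fold, were recomputed under 8 alternatives. Slc25a4 remained the highest and Slc25a20 the lowest carrier past 1.5-fold under all 8. The median of the family lay between -0.11 and 0.01. Scaling to equal library medians multiplied the knockout values by 0.943 and left only 1 carrier at least 1.5-fold higher and 4 lower, as Slc25a26 missed the threshold and Slc25a34 and Slc25a22 passed it. With this scaling 34.3% of all genes past 1.5-fold were the higher ones, against 45.7% as deposited. With equal upper quartiles 1 was higher and 3 were lower, with a mean of at least 5 FPKM 1 was higher, and with a pseudocount of 0.1 3 were lower. With a pseudocount of 5, 1 was higher, 1 lower and 0 at least 2-fold apart. The outer membrane channels had a median of -0.0128 with equal medians, 0.00604 with equal upper quartiles and 0.12 with equal sums without mitochondrial genes. The list of carrier-related outer membrane and uncoupling genes was at 0.0461 without the filter, 0.0378 with equal medians and 0.0564 with equal upper quartiles, and mitochondrial mass at 0.21 with equal medians. The ratio of Slc25a5 went below 0, to -0.07 with equal medians and -0.05 with equal upper quartiles. Medians not given here moved by no more than their own list's tolerance, the median distance from a gene's fold to the bounds of its counting interval, which was 0.0464 to 0.388 on the log2 scale by list. Each scaling multiplied every knockout value by the same factor, so with 1 FPKM added the log2 ratios of low genes moved by less. No paired analysis was possible because each genotype has 1 library.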
